A study of Mus musculus with 18 samples.

Results

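The genes described here carry the names of cytosolic ribosomal protein genes. They were followed in the hippocampus and cortex of mice given urban particulate matter (UPM) through the nose. Among them Rps4l is annotated as a pseudogene, and Rpl7l1 works in ribosome assembly. The rule of entry used name and count alone, and the group was chosen with earlier results of these data known. A gene entered when its symbol followed the Rpl, Rps, Rplp or Rpsa naming pattern and when it had at least 10 counts in 9 or more of the 18 libraries. Of 23238 gene symbols in the count files, 84 matched the name pattern and 81 passed the count minimum. By name 48 belong to the large subunit and 33 to the small subunit. The 3 that did not pass were the paralogs Rpl3l, Rpl10l and Rpl39l, whose highest counts in any library were 10, 1 and 3.

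Male C57BL/6 mice, 7 weeks old at the start, were given UPM (the certified urban dust SRM 1648a) in PBS through the nose, or PBS alone as the vehicle control. Short-term exposure was daily for 3, 5 or 7 days, and long-term exposure was 2 doses a week for 3, 8, 12, 16 or 20 weeks. RNA from the animals in each group was combined before 3′ mRNA sequencing, so each tissue had 1 library per exposure time and 1 control library, 9 libraries per tissue. The number of mice per pool and the time at which the control mice were taken are not given in the sources used here. Libraries of different times therefore stand in for replicates, and every p-value below measures the spread between such libraries and not between animals.

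The ribosome reads mRNA in its small subunit and joins amino acids in its large subunit, and most of its proteins are needed in equal number. Their mRNAs are short and abundant, and many begin with a stretch of pyrimidines, the 5′ terminal oligopyrimidine (TOP) motif, through which mTOR and Larp1 control their translation together. In neurons ribosomes work in the cell body and also in dendrites and axons, where proteins are made near synapses.

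All 81 genes had a position in the GENCODE M21 annotation, on 19 chromosomes and 4 of them on chromosome X. The annotation calls 80 of them protein coding and Rps4l, on chromosome 6 from 148354656 to 148355598, a transcribed processed pseudogene. Small RNAs are annotated within 32 of the genes, and 38 overlap an exon of another gene. Processed copies of ribosomal protein genes are common in the genome. How reads that match several copies were counted, and whether strand was used, is not given in the sources used here, so the counts of single genes are uncertain to that extent.

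The TOP motif lies at the transcription start, and the start regions of 8 genes that the results return to are shown for that reason. Each covers 55 bases before and 25 bases from the start in the RefSeq table of promoters (GRCm38.p6), 5′ to 3′ on the gene's strand. The RefSeq start lies 281 bases from the GENCODE start for Rplp2, 180 for Rpl39, 72 for Rpl22l1 and 0 to 47 for the other 5, so a marked run need not lie at the start in use. In the sequences, capitals mark the longest run of C or T that overlaps the 10 bases on either side of the start.
Rps21 (chr2:180257324-180257403, plus strand): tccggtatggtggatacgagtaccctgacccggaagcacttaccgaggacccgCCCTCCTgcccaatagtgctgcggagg
Rpl39 (chrX:37085198-37085277, minus strand): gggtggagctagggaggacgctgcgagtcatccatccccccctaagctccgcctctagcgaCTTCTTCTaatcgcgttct
Rplp2 (chr7:141447596-141447675, plus strand): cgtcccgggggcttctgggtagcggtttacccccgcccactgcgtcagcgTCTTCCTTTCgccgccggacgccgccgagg
Rps2 (chr17:24720008-24720087, plus strand): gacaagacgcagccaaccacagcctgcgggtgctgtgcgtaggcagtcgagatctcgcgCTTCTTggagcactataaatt
Rpl22l1 (chr3:28805453-28805532, plus strand): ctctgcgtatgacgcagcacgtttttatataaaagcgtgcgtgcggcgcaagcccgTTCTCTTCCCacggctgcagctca
Rps27l (chr9:66946031-66946110, plus strand): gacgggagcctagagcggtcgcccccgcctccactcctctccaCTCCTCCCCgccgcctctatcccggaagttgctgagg
Rps6 (chr4:86857343-86857422, minus strand): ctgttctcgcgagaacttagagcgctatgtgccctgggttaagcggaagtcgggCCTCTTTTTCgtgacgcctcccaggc
Rpl4 (chr9:64173332-64173411, plus strand): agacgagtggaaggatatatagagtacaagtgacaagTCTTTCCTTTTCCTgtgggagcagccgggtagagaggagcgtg

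The RefSeq table held promoters of 60 of the 81 genes. A pyrimidine run of at least 6 bases overlapping that window was found in 33 of the 60 (55%), against 28.8% of all 27025 promoters in the table and 27.4% of the 10203 promoters of genes that met the same count minimum. The motif CCGGAAG, read on both strands of the 300 bases from 250 before to 50 after the start, was present in 24 of 60 (40%), against 9.21% of all promoters and 17.3% of those of expressed genes. AAGATGG was found in 15%, against 6.44% of all promoters and 7.14% of those of expressed genes. CTTTCC was found in 50%, against 26.4% and 26.2%, and CCAAT in 31.7%, against 37.7% and 38.2%. TATAAA was found in 10%, below the 14.2% of all promoters and above the 6.91% of those of expressed genes. CTTTCC can overlap the pyrimidine run. These are counts of letters near annotated starts and show no binding.

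Library totals ran from 5434067 to 8967430 counts, of which the ribosomal RNA precursor Rn45s took 7.75% to 18.6%. The count files use 2 styles of column header: one for the 8 libraries of 3, 5 and 7 days and 3 weeks, called the early set here, and another for the 10 libraries of controls and of 8 to 20 weeks, the control and late set. The sets did not overlap in Rn45s share (14.8% to 18.6% against 7.75% to 12.9%), in the number of genes detected (14643 to 16225 against 16550 to 17288) or in the summed level of 8 long nuclear RNAs, among them Meg3 and Miat (3289 to 7055 against 14323 to 27776 CPM, the counts scaled per library). Both controls lie in 1 set and all libraries of the first 3 weeks in the other. Within the second style the headers of 12, 16 and 20 weeks carry the week, whereas those of 8 weeks carry the number 1, as the controls do; their time was taken from the sample labels. What the header style stands for is not given in the sources used here, so the set, the length of exposure and, for the first 3 weeks, exposure itself cannot be told apart. The labelled tissues showed their markers: 10 of 10 hippocampal neuron markers were higher in hippocampus, and 9 of 10 cortical and 8 of 9 tested striatal markers were lower there (edgeR quasi-likelihood test, adjusted p under 0.05). Choroid plexus markers, summed, ranged from 16.7 to 7096 CPM in the early set and from 35.4 to 4803 CPM in the other.

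With Rn45s left out of the total, ribosomal protein mRNAs made up 1.68% to 2.52% of the counts of early libraries and 1.28% to 1.49% elsewhere. In hippocampus the share was 1.49% in the control library, 2.01% at 3 days, 1.93% at 5 days, 1.85% at 7 days and 2.14% at 3 weeks. It was 1.47% at 8 weeks, 1.44% at 12 weeks, 1.45% at 16 weeks and 1.42% at 20 weeks. Every early library was above every other library of the tissue, and the 8- to 20-week libraries lay just under the control.

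In cortex the share was 1.28% in the control library, 1.68% at 3 days, 2.26% at 5 days, 2.26% at 7 days and 2.52% at 3 weeks. At 8, 12, 16 and 20 weeks it was 1.34%, 1.44%, 1.40% and 1.49%. The 3-day library was the lowest of the early cortical libraries and still above all later ones. The 95% binomial interval (Wilson method, counting error only) of the 3-week cortical share was 2.51% to 2.53%, far narrower than these differences. In bulk RNA a lower share can mean fewer cells of a type or less RNA per cell, and these cannot be told apart.

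**Figure D1:**
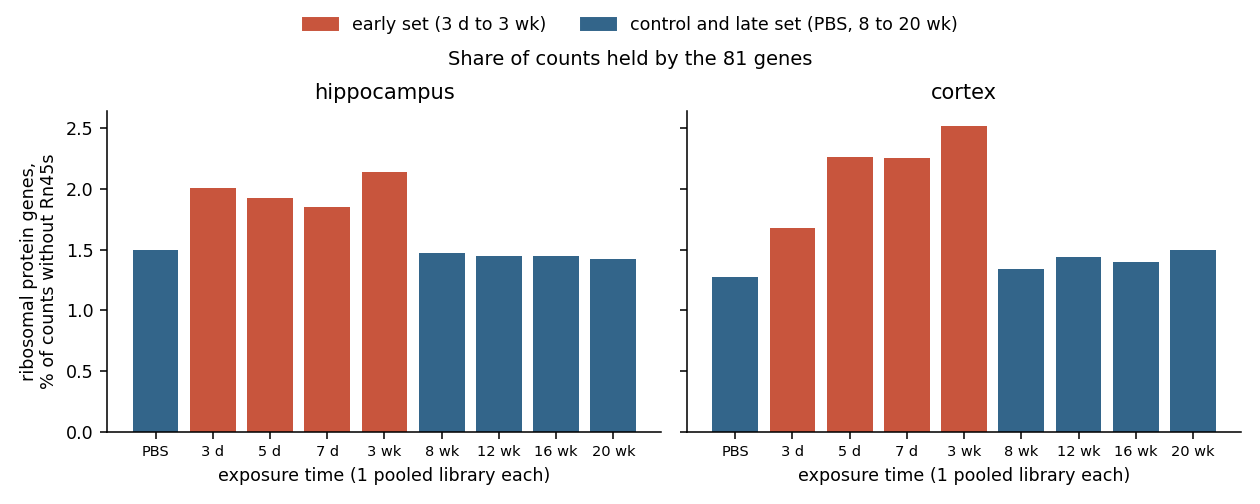
Bars give the percent of counts, Rn45s left out, that the 81 ribosomal protein genes hold in each of the 18 pooled libraries, by tissue and exposure time (PBS is the vehicle control), coloured by library set. The 8 early libraries sit between 1.68% and 2.52%, above the 10 others at 1.28% to 1.49%.

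The levels of the 81 genes spanned 97.3-fold, with a median of 127 CPM over the 18 libraries and 46 genes at 100 CPM or more. The 3′ method counts about 1 fragment per transcript, so CPM is not divided by length, and levels of different genes also depend on how well each 3′ end maps. Rplp1, a subunit of the stalk that brings elongation factors to the ribosome, was the most abundant at 1526 ± 420 CPM (SD, 18 libraries) and alone held 10.1% of the counts of the group. Rps14 (653 ± 295 CPM), Rps29 (484 ± 149 CPM), Rpl4 (468 ± 58.7 CPM) and Rps20 (393 ± 110 CPM) followed, and the 10 highest genes together held 35.1%. The lowest were Rpl11 (39.0 ± 9.90 CPM), Rpl7l1 (32.6 ± 9.91 CPM), Rpl12 (27.6 ± 8.71 CPM), Rps4l (26.3 ± 8.64 CPM) and Rps27l (15.7 ± 7.42 CPM). Most of the proteins sit in the ribosome in equal number, while these mRNA levels did not. Large-subunit counts exceeded small-subunit counts 1.60 to 1.69 times in the control and late set and 1.47 to 1.59 times in the early set, ranges that do not overlap.

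Of the 81 genes, 78 were higher in the early set than in the control and late set and 0 were lower (edgeR quasi-likelihood test with tissue as a covariate, Benjamini-Hochberg adjusted p under 0.05). Across the genome this contrast called 40.1% of 13520 genes in either direction and 20.8% as higher. The median log2 difference was 0.66 over the 81 genes and 0.003 over all genes tested, with medians of 0.64 for the large and 0.68 for the small subunit. With total counts as the scale, which moves the median of all genes to -0.19, 63 were higher and 2 lower. In 53 of the 81 every early library lay above every other library, against 4.59% of all genes tested. Rn45s, the long nuclear RNAs and the number of genes detected moved with the same contrast, and their part in the result was not tested. The call held in both tissues taken alone: 67 of 81 in hippocampus (11.5% of all genes called higher) with a median of 0.56, and 74 of 81 in cortex (16.0%) with a median of 0.72. In hippocampus 67 and in cortex 58 of the genes had every early library above every other, against 10.6% and 12.9% of all genes, and 54 did so in both.

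**Figure D2:**
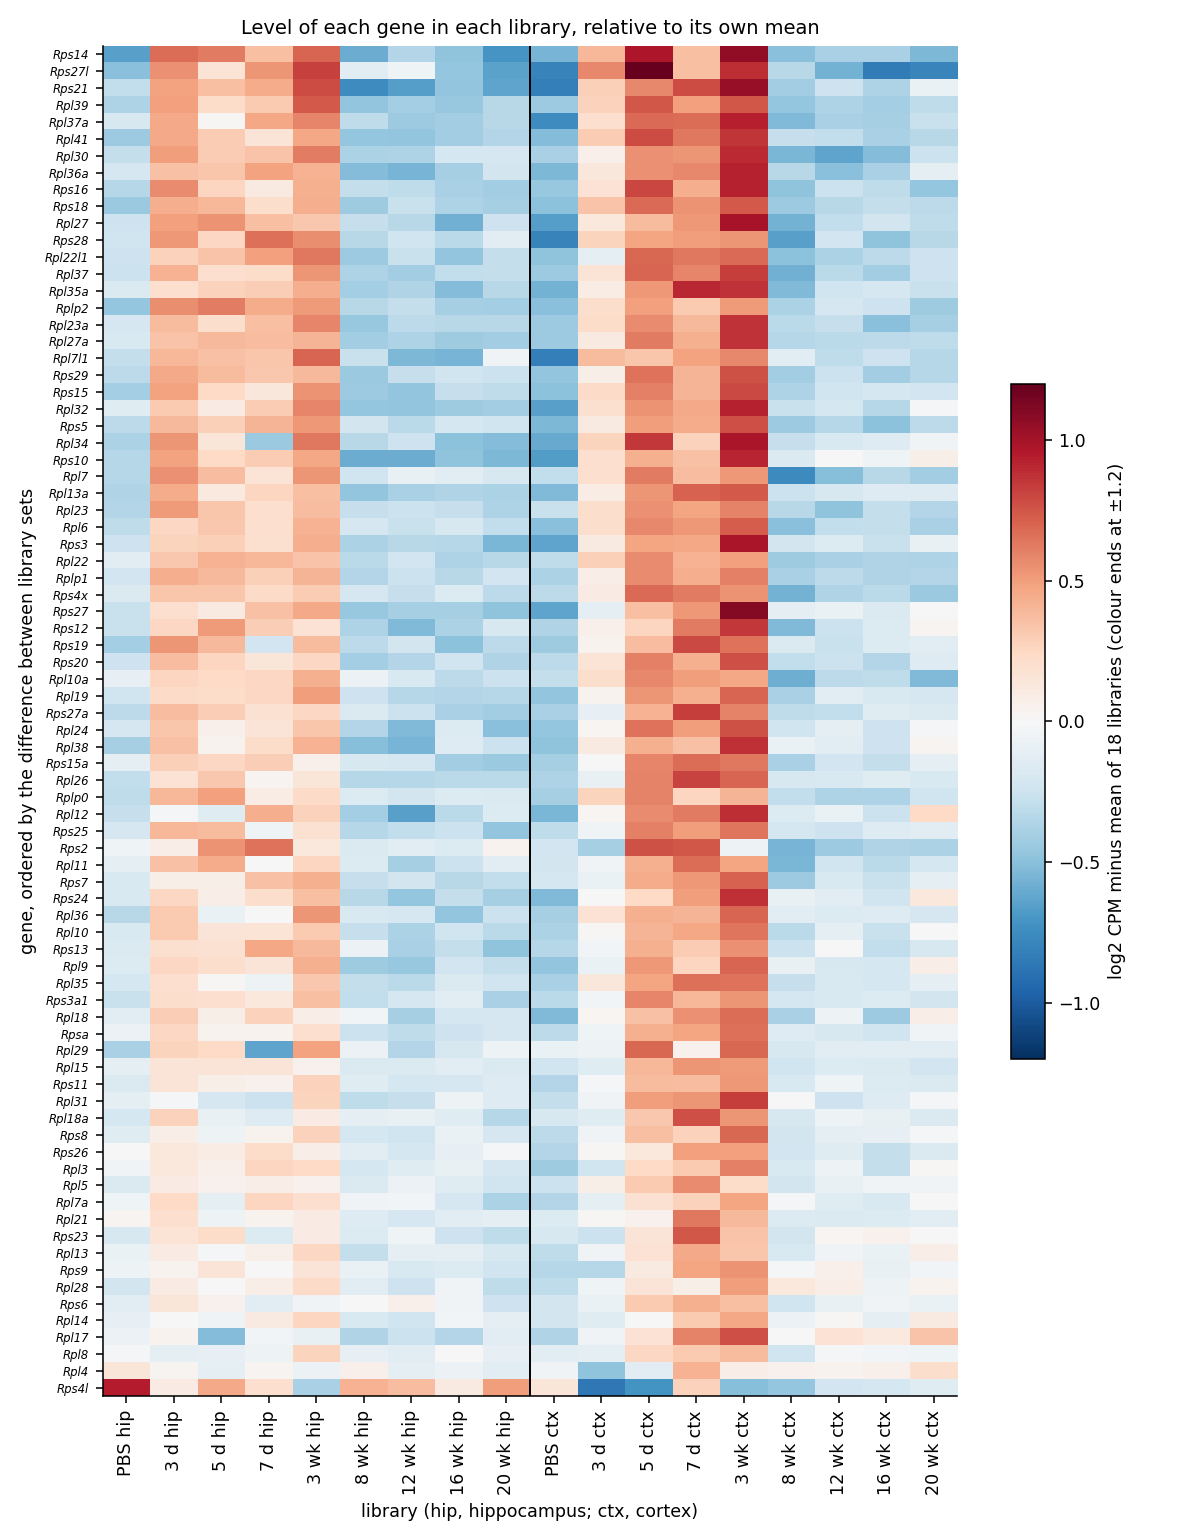
Each row is 1 of 80 of the 81 genes and each column 1 library, hippocampus left and cortex right, ordered by exposure time; colour is log2 CPM minus the gene's own mean over the 18 libraries. The 4 early columns of each tissue are mostly red, with cortex at 3 days paler and near or below 0 in many lower rows; the bottom rows include Rpl17, Rpl8, Rpl4 and Rps4l, and the 3-week column of cortex is the reddest.

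The largest difference was that of Rps14, a protein of the small subunit's platform whose human counterpart is lost in the 5q- syndrome. In hippocampus Rps14 stood at 381 CPM in the control and at 952, 918, 768 and 968 CPM at 3, 5 and 7 days and 3 weeks, then at 395, 469, 427 and 366 CPM at 8, 12, 16 and 20 weeks. In cortex it stood at 405 CPM in the control, at 786, 1166, 767 and 1247 CPM in the early libraries and at 422, 456, 455 and 411 CPM from 8 to 20 weeks. The early libraries of both tissues were well above all others, while the control lay within the range of 8 to 20 weeks in hippocampus and just under it in cortex. The log2 difference was 1.18 ± 0.09 (SE, 8 against 10 libraries, edgeR adjusted p = 6.95e-10).

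Rps27l, a paralog of Rps27 known as a target of p53, followed at 1.17 ± 0.14 (edgeR adjusted p = 8.44e-07) from the lowest level in the group. It stood at 10.1 CPM in the hippocampal control, at 20.8, 15.9, 20.5 and 25.1 CPM in the early and at 13.0, 13.7, 10.3 and 9.07 CPM in the late libraries. Cortex gave 8.13 CPM in the control, 21.1, 33.1, 18.3 and 26.2 CPM early and 11.2, 9.58, 7.95 and 8.22 CPM late. The early values again lay above all others in both tissues. Its partner Rps27 differed by 0.70 ± 0.12 (edgeR adjusted p = 3.67e-05), from 52.5, 72.5 and 121 CPM (lowest, median and highest of the early set) to 36.6, 45.2 and 56.5 CPM, with ranges that overlap.

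Rps21, a small-subunit protein whose start region above carries a 7-base pyrimidine run, ranged from 202 over a median of 239 to 342 CPM early and from 94.1 over 122 to 157 CPM in the other set, a log2 difference of 1.07 ± 0.10 (edgeR adjusted p = 1.51e-08). The sets did not overlap. All 16 members that are genes of Diamond-Blackfan anaemia, a failure of red cell formation, were higher in the early set, with a median of 0.65, as were nearly all others.

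The stalk proteins moved together. Rplp1 stood at 1259 CPM in the hippocampal control, 1990, 1927, 1803 and 1951 CPM at 3, 5 and 7 days and 3 weeks, and 1155, 1231, 1172 and 1260 CPM from 8 to 20 weeks. Its cortical values were 1132 CPM in the control, 1557, 2182, 1992 and 2243 CPM early and 1128, 1185, 1151 and 1158 CPM late. The lowest early library, cortex at 3 days, was above the highest of all others. The log2 differences were 0.73 ± 0.07 for Rplp1 (edgeR adjusted p = 1e-08), 0.82 ± 0.06 for Rplp2 (6.96e-10) and 0.62 ± 0.07 for Rplp0 (1.9e-07), the protein that anchors the other two. Rpl12, at the stalk's base, differed by 0.61 ± 0.12 (0.000327) with overlapping ranges.

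**Figure D3:**
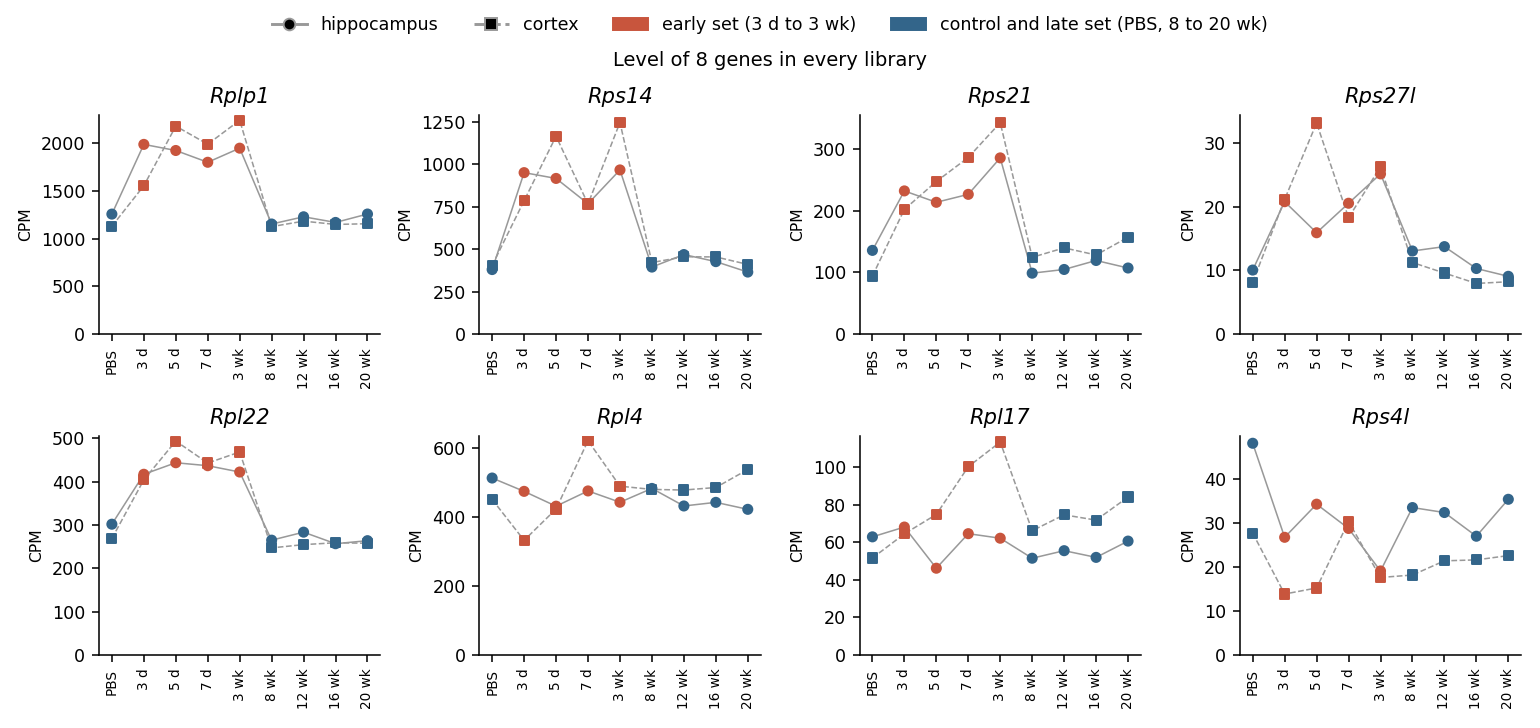
Points give the CPM of 8 ribosomal protein genes in each of the 18 libraries (circles and solid lines, hippocampus; squares and dashed lines, cortex) by exposure time, coloured by library set; the vertical axes start at 0 and differ between genes. Rplp1, Rps14, Rps21, Rps27l and Rpl22 step up from 3 days to 3 weeks and back at 8 weeks, whereas Rpl4 and Rps4l do not. Rpl17 climbs from 3 days to 3 weeks and falls back at 8 weeks in cortex, but not in hippocampus.

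Around the peptide exit tunnel, 7 of 9 genes were higher in the early set. Rpl39, a small protein that lines the tunnel, differed by 0.92 ± 0.08 (edgeR adjusted p = 2.47e-09; 97.0, 117 and 139 CPM early against 59.9, 62.7 and 67.4 CPM). Rpl22, which binds many RNAs outside the ribosome, ranged from 404 over 440 to 494 CPM early and from 247 over 262 to 302 CPM otherwise (0.73 ± 0.06, edgeR adjusted p = 9.78e-10). The other two, Rpl4 and Rpl17, did not pass. Rpl22 was the steadiest of the named genes, with a spread of 0.08 log2 units between libraries of the same set and tissue.

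Its paralog Rpl22l1 differed by as much, 0.84 ± 0.09 (edgeR adjusted p = 1.21e-07). Hippocampal Rpl22l1 stood at 102 CPM in the control, 147, 154, 171 and 188 CPM early and 89.6, 101, 87.6 and 99.9 CPM late, and cortical Rpl22l1 at 87.1 CPM in the control, 112, 196, 189 and 195 CPM early and 86.1, 93.2, 97.7 and 102 CPM late. Rpl7l1, a paralog of Rpl7 that works in ribosome assembly, differed by 0.79 ± 0.10 and Rpl7 by 0.75 ± 0.08 (edgeR adjusted p = 6.9e-07 and 2.74e-07). Both paralogs thus lay with their partners, in a group where 78 of the 81 genes were higher in the early set.

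The 5S particle proteins Rpl5 and Rpl11, which also bind Mdm2 when ribosome assembly fails, were higher in the early set by 0.33 ± 0.07 and 0.59 ± 0.09 (edgeR adjusted p = 0.000286 and 2.16e-05). Rps27a, made as a fusion with ubiquitin, differed by 0.66 ± 0.09 (2.19e-06), Rps19, the gene most often mutated in Diamond-Blackfan anaemia, by 0.68 ± 0.10 (1.01e-05) and Rpsa, also known as the laminin receptor, by 0.47 ± 0.08 (5.75e-05). Rps6, a substrate of S6 kinase, was among the smaller called differences at 0.24 ± 0.08 (edgeR adjusted p = 0.016). Its mRNA ranged from 83.0 over 97.3 to 122 CPM early and from 76.3 over 85.5 to 94.6 CPM otherwise. Rpl8 had the smallest called difference at 0.20 ± 0.07 (edgeR adjusted p = 0.0345).

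Rpl4, Rpl17 and Rps4l did not pass. Rpl4, whose long loop reaches into the exit tunnel, stood in hippocampus at 514 CPM in the control, 475, 432, 476 and 444 CPM early and 484, 433, 443 and 423 CPM late. In cortex it stood at 452 CPM in the control, 333, 424, 622 and 490 CPM early and 481, 479, 486 and 539 CPM late. The sets overlapped throughout, and the cortical libraries of 3 and 7 days were the lowest and the highest of all 18. The log2 difference was -0.03 ± 0.09 (edgeR adjusted p = 0.786). The start region of Rpl4 carries the longest pyrimidine run of those shown, 14 bases, which begins at position -18 and ends before the RefSeq start. Rpl17 differed by 0.22 ± 0.11 (0.118) and Rps4l by -0.30 ± 0.15 (0.117).

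Among the 80 protein-coding members the difference was smaller for longer coding sequences (Spearman's rho -0.54 across genes, which are not independent and share the libraries). The same relation held across 12796 other genes (rho -0.40). The 10 members of up to 300 coding bases had a median log2 difference of 0.87, the 28 of 301 to 450 bases 0.73, the 19 of 451 to 600 bases 0.58 the 20 of 601 to 900 bases 0.55 and the 3 of 901 to 1500 bases 0.38. Over the same bins the medians of all other genes were 0.46, 0.34, 0.24, 0.14 and 0.03, falling to -0.27 for genes over 3000 bases. Ribosomal protein genes were thus above other genes of like coding length in each of the 5 bins, which is a description with no test. Members with and without the pyrimidine run had medians of 0.64 (33 genes) and 0.68 (27 genes), and hosts of small RNAs and other members 0.63 (32) and 0.66 (49).

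**Figure D4:**
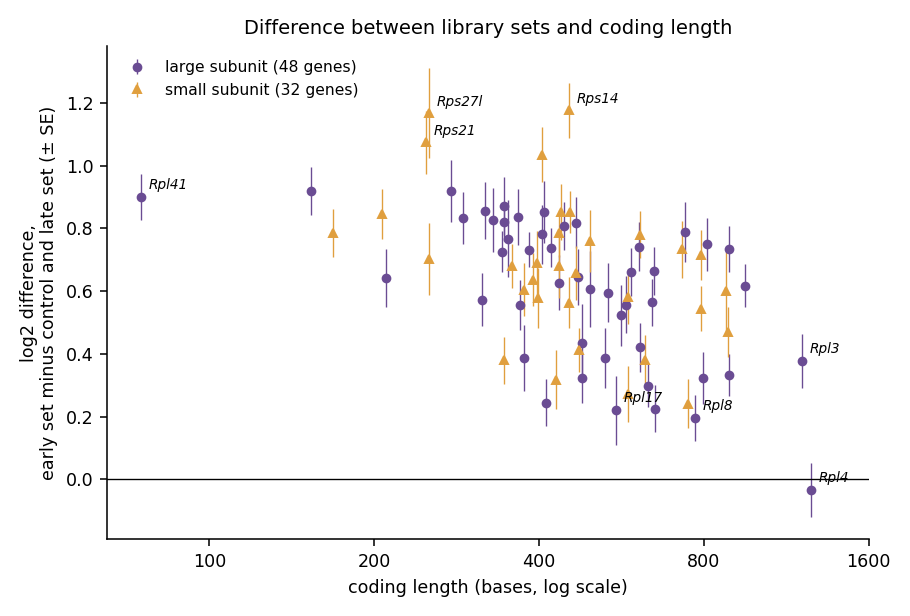
Each point is 1 of 80 protein-coding members, with coding length in bases on a log axis and the log2 difference between the early set and the control and late set (± SE) on the vertical axis, large and small subunit marked apart. Genes of up to 300 bases lie between 0.64 and 1.17, and Rpl4, the longest, lies at -0.03.

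Related genes were counted in the same contrast, from lists chosen with earlier results known. All 6 tested ribosome genes outside the name pattern were higher in the early set, among them Fau (0.71 ± 0.07), whose product carries the small-subunit protein eS30. Of 22 elongation factors and other TOP mRNAs 19 were higher, with Tpt1 at 0.69 ± 0.07 and Btf3 at 0.63 ± 0.08. Of 44 ribosome biogenesis factors 15 were higher and 8 lower, against 20.8% higher and 19.3% lower over all genes tested, with Ncl, a nucleolar protein, at 0.73 ± 0.08 and Rbm28 at -0.74 ± 0.09. Of 23 mTOR pathway genes 4 were higher and 8 lower, to be read against the same shares of all genes. Among the lower ones were Tsc2 (-1.19 ± 0.08) and Mtor itself (-0.74 ± 0.09).

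Higher levels in the early set were also seen outside cytosolic translation. The counts that follow are to be read against 20.8% higher and 19.3% lower over all genes tested. Of 48 nuclear oxidative phosphorylation genes, likewise short and abundant, 44 were higher (median 0.62), and of 77 mitochondrial ribosomal proteins 41 (median 0.27). The 8 non-members most like the mean of the members over the 18 libraries, out of 6794 with at least 20 CPM, were Rps27rt, Rpl37rt, Pfdn4, Timm8b, Tbca, Ndufv2, Cox7a2l and Grcc10, chosen for that likeness. The first 2 are retrotransposed copies of Rps27 and Rpl37, with which they may share reads. Cell type markers moved less uniformly: 6 of 10 astrocyte, 5 of 10 microglial and 6 of 7 red blood cell genes were higher in the early set, 1 microglial gene was lower, and of 10 oligodendrocyte genes 0 passed in edgeR. Red blood cell genes summed to 1146 to 3883 CPM early and 840 to 1532 CPM otherwise, and their part in the result was not tested.

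Short-term exposure was compared with the controls, which lie in the other library set. Of the 81 genes 34 were higher at 3 to 7 days (6 libraries) than in the 2 controls and 0 were lower (edgeR, adjusted p under 0.05), against 4.35% of all 14209 genes called in either direction and 1.84% called higher. The median log2 difference was 0.61, and -0.01 over all genes. Rps14 rose by 1.16 ± 0.18 (edgeR adjusted p = 0.00327), Rplp2 by 0.90 ± 0.14 (0.00344), Rps18 by 0.88 ± 0.16 (0.00709), Rpl41, among the smallest of the proteins, by 0.89 ± 0.17 (0.00859) and Rps28 by 0.94 ± 0.18 (0.00994). Rps14 read 729 CPM or more in all 6 exposed libraries and at most 394 CPM in both controls on the scale of this fit. The count fell to 1 without the hippocampal control and to 0 without the cortical control, and was 22 without 7 days and 14 with total counts as the scale.

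From 8 to 20 weeks, where exposed and control libraries share a set, 0 of the 81 genes differed from the controls in edgeR (8 against 2 libraries). An unadjusted p under 0.05 was reached by 1 gene, and the calls of DESeq2 and of limma-voom were 0 as well. Over all 14465 genes 0.0% were called, and 676 had an unadjusted p under 0.05. The median log2 difference of the members was 0.07, between -0.49 and 0.24, and the controls are the same 2 libraries as above. Against its own control each late hippocampal library had a median of -0.06 to -0.09 and each late cortical library one of 0.10 to 0.22. The cortical control was below all 4 late cortical libraries in 53 of the 81 genes, and the hippocampal control above all 4 late hippocampal ones in 34. Each count rests on 1 control library and has no share over all genes beside it, so neither can be read as an effect of exposure.

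The gene with the smallest p in that comparison was Rps4l, with a log2 difference of -0.49 ± 0.12 (edgeR adjusted p = 0.994). Rps4l stood at 48.2 CPM in the hippocampal control, 26.8, 34.3, 28.8 and 19.1 CPM in the early and 33.5, 32.4, 27.01 and 35.4 CPM in the late libraries. In cortex the values were 27.7 CPM in the control, 13.9, 15.2, 30.3 and 17.6 CPM early and 18.2, 21.4, 21.6 and 22.6 CPM late. The control was the highest hippocampal library and the second highest cortical one. Its functional counterpart Rps4x, the X-linked small-subunit gene, had 77.7 and 70.8 CPM in the 2 controls and 59.4 to 78.1 CPM from 8 to 20 weeks.

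With all 16 exposed libraries against the 2 controls, 0 of 81 genes passed in edgeR, DESeq2 or limma-voom, and 2 had an unadjusted p under 0.05. Over all 14865 genes 0.0% were called, and 272 had an unadjusted p under 0.05. The median log2 difference was 0.40 (all genes 0.02), with 79 of the 81 above 0, against 7862 of all genes. This contrast pools exposed libraries of both sets.

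Long-term was compared with short-term exposure, a contrast whose long-term group holds the 3-week libraries of the early set. Of the 81 genes 17 were lower in the 10 long-term than in the 6 short-term libraries and 0 higher (edgeR with tissue as a covariate, adjusted p under 0.05), against 16.1% of 13702 genes called in either direction and 7.58% called lower. The median was -0.41 (all genes 0.003). Rps2, at the mRNA entry of the small subunit, fell by 0.66 ± 0.14 on the log2 scale (edgeR adjusted p = 0.00819), Rpl22 by 0.56 ± 0.14 (0.0122), Rplp0 by 0.47 ± 0.12 (0.0149) and Rplp2 by 0.56 ± 0.15 (0.0184).

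The values of Rps2 show how the classes are made up. In hippocampus it stood at 73.4, 101 and 109 CPM at 3, 5 and 7 days, 75.5 CPM at 3 weeks, 61.4, 63.4, 61.8 and 71.6 CPM later and 67.0 CPM in the control. In cortex it stood at 52.7, 118 and 116 CPM, then 66.4 CPM at 3 weeks, 47.0, 51.3, 53.9 and 53.3 CPM later and 59.2 CPM in the control. At 3 weeks Rps2 was below 5 and 7 days and above 8 to 20 weeks in both tissues, and its 3-day cortical value lay within the range of 8 to 20 weeks. For Rpl22 the 3-week values of 423 and 469 CPM lay among the short-term values of 404 to 494 CPM, and the 8- to 20-week values were 247 to 284 CPM.

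The count of 17 rests on which libraries enter. It was 70 without the 3-week libraries, 0 without 5 days, 3 without 7 days and 2 or 3 without any of 8, 12, 16 and 20 weeks. Without the 3-week libraries all long-term libraries lie in 1 library set and all short-term ones in the other. These counts have no share over all genes beside them, so their changes show nothing particular to the members. With the library set as a term in the fit the count was 0, and the median turned to 0.24. By construction that fit rests on the 3-week against the 3- to 7-day libraries, since all libraries of 8 to 20 weeks lie in the other set. Within hippocampus 0 of 81 passed in edgeR, 8 in DESeq2 and 0 in limma-voom, with 0.273% of 13908 genes called in edgeR. An unadjusted p under 0.05 was reached by 31 of the 81, against 3015 of all 13908 genes. Within cortex 0 passed in edgeR, 1 in DESeq2 and 0 in limma-voom, with 0.0% of 13762 genes called in edgeR. There 16 of the 81 had an unadjusted p under 0.05, no larger a share than 2921 of all 13762 genes. Without the 3-week library the counts were 58 in hippocampus and 63 in cortex. Neither has a share over all genes beside it. The difference between the tissues in this contrast was called for 0 of 81 genes by any of the 3 tools, with 0.0% of 14427 genes called. An unadjusted p under 0.05 was reached by 0 of the 81, against 1123 of all 14427 genes.

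**Figure D5:**
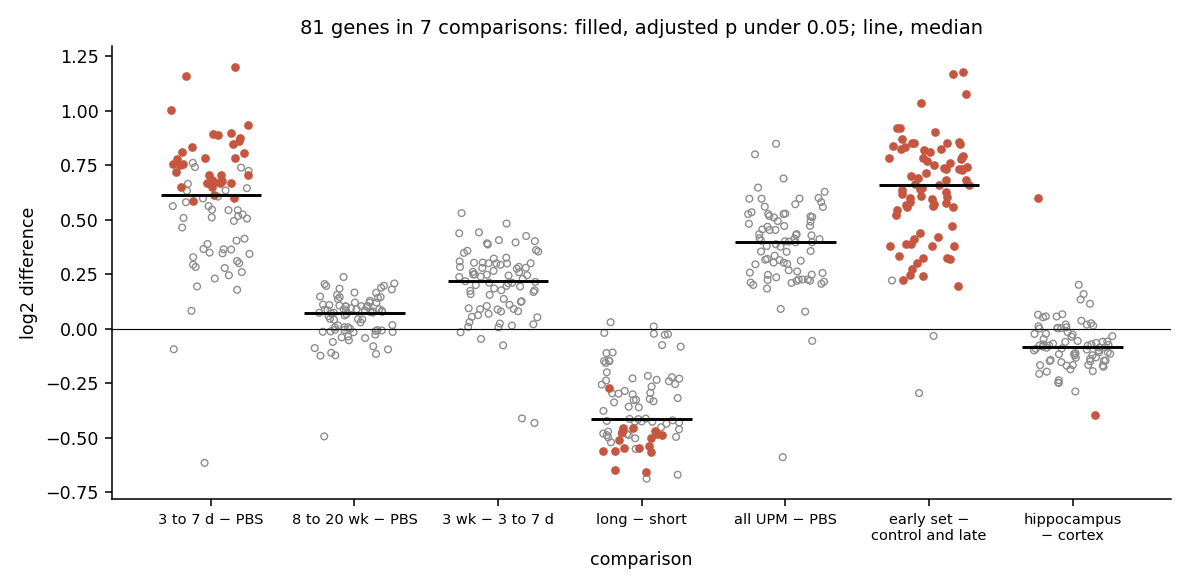
Each point is 1 of the 81 genes in 1 of 7 comparisons, placed by its log2 difference, filled where the edgeR adjusted p was under 0.05, with the median as a line; sideways position within a comparison has no meaning. Medians are 0.61 for 3 to 7 days against PBS, 0.07 for 8 to 20 weeks against PBS and 0.66 for the early set against the control and late set.

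The 3-week libraries, long-term by label, resembled the short-term ones in these genes. In hippocampus 78 and in cortex 79 of the 81 were higher at 3 weeks than in every library of 8 to 20 weeks. Against the range of 3, 5 and 7 days, 38 hippocampal genes were above, 37 within and 6 below, and 54 cortical genes were above, 27 within and 0 below. All these counts cover the members only and have no share over all genes beside them, so they show nothing particular to the members. The test of 3 weeks against 3 to 7 days (2 against 6 libraries of the early set) called 0 of 81 genes by edgeR and likewise by DESeq2 or limma-voom. Without adjustment 14 had a p under 0.05, against 606 of all 14036 genes, of which 0.0% were called after adjustment. The median was 0.22 (all genes -0.01), and 76 of the 81 were above 0, against 6767 of all genes. Rpl32 had the smallest p (0.42 ± 0.14, edgeR adjusted p = 0.999), followed by Rps27 (0.53 ± 0.19) and Rps21 (0.41 ± 0.15).

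Over 8 to 20 weeks the slope with time was called for 0 of 81 genes by each of the 3 tools, edgeR included (0.264% of 13662 genes were called). An unadjusted p under 0.05 was reached by 5 of the 81, against 1343 of all 13662 genes. The steepest were Rps12, at 0.30 ± 0.11 log2 units per 10 weeks (edgeR adjusted p = 0.381), and Rps27l, at -0.45 ± 0.17 (0.383).

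Spread within the sets differed. Between libraries of the same set and tissue the median SD of the members was 0.23 log2 units in the early set and 0.11 in the control and late set, against 0.241 and 0.145 over 7610 other genes at least as abundant as the lowest member. In the early set cortex varied most: relative to each gene's own mean the median member stood at 0.06 at 3 days, 0.50 at 5 days, 0.48 at 7 days and 0.69 at 3 weeks. The hippocampal medians were 0.30, 0.22, 0.21 and 0.36. Against the cortical control 48 of the 81 genes were at least 2-fold apart at 3 weeks and 4 at 3 days. These counts rest on 1 control library of the other set and have no share over all genes beside them.

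Between the tissues the ribosomal protein genes differed little. With exposure time as a factor and all 18 libraries, 2 of 81 were called in edgeR, against 18.2% of 13362 genes. Rps4l was higher in hippocampus by 0.60 ± 0.12 on the log2 scale (edgeR adjusted p = 0.00229) and higher in hippocampus at 8 of the 9 times, the exception being 7 days. Rpl17, another protein at the rim of the exit tunnel, was lower by 0.40 ± 0.10 (0.0127).

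Rpl17 in hippocampus stood at 62.9 CPM in the control, 68.1, 46.2, 64.6 and 62.2 CPM in the early and 51.5, 55.5, 52.0 and 60.6 CPM in the late libraries. In cortex it stood at 51.6, then 64.5, 74.8, 100.3 and 113 CPM, and 66.2, 74.6, 71.8 and 84.1 CPM. The cortical library was the higher one at 5 and 7 days and at every time from 3 to 20 weeks, and the lower one in the control and at 3 days. Both tissues overlapped in both genes. The count was 7 without 3 days and 5 without the controls. Neither gene differed by a fold tested as above 1.5, and Rpl17 no longer passed without the 3- and 8-week libraries together (adjusted p = 0.0826).

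In the control and late set 3 of 81 genes were higher in hippocampus and 0 lower (20.5% of 13625 genes were called), among them Rps4l by 0.65 ± 0.10 (edgeR adjusted p = 0.000886) and Rps2 by 0.30 ± 0.07 (0.0155). The count was 10 with total counts as the scale, 12 with totals without Rn45s, 1 without 12 weeks and 11, of which 4 were higher and 7 lower, without the controls. Rps2 lost its call without 8, 12 or 20 weeks. In the early set 0 of 81 passed in edgeR, and 1 each in DESeq2 and limma-voom, with 4.86% of 13053 genes called in edgeR. An unadjusted p under 0.05 was reached by 7 of the 81, against 2328 of all 13053 genes. The median was -0.16 (all genes -0.02). In hippocampus 74 of the 81 were lower, against 6864 of all genes. Without 3 days 2 passed.

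The step between the library sets was larger in cortex in 74 of 81 genes, by a median of 0.17 log2 units. Over all 14249 genes the difference, hippocampus minus cortex, was below 0 in 7523, with a median of -0.02. The test of that difference called 0 of 81 genes, whether by edgeR, by DESeq2 or by limma-voom (0.0% of 14249 genes were called). An unadjusted p under 0.05 was reached by 9 of the 81, against 1495 of all 14249 genes. For Rpl6, a large-subunit protein, the difference was -0.36 ± 0.13 (hippocampus minus cortex, edgeR adjusted p = 0.319). Rps14 had nearly the same step in both, 1.13 ± 0.10 and 1.21 ± 0.13.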

How the data were processed

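RNA pooled per group was sequenced as single-end 3′ libraries with reads of 75 bases, per the labels' protocols. The authors deposited raw counts per gene symbol, made with Bowtie2 and bedtools on mm10, per the submitters' processing notes, which also name edgeR. The versions, annotation, use of strand and treatment of reads with several matches are not given in the sources used here. Gene symbols that read as calendar dates (27 in each of 2 files, 0 of them members) were set back to symbols.

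In edgeR 4.0.16 (R 4.3.3) counts were scaled by TMM, low genes were removed by filterByExpr, and the quasi-likelihood F-test was run over all genes, with Benjamini-Hochberg adjustment and a threshold of 0.05; fold changes use a prior count of 2. The SE is the log2 fold change divided by the root of F. Alternatives were DESeq2 1.42.0, limma-voom (limma 3.58.1), other scalings and filters, a test for folds above 1.5 and leaving libraries out. The code was tested on simulated data. Library totals of 5434067 to 8967430 put 3 counts at 0.335 to 0.552 CPM, so counting error is small for these genes. CPM are TMM-scaled over the 18 libraries unless a fit's own scale is named. No library repeated another (chi-squared per degree of freedom 4.67 to 68.8 over 26 pairs). Coordinates and coding lengths come from GENCODE M21, Python 3.11.15 and SciPy 1.17.1 served for descriptions.

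The named genes were, per comparison, those with the smallest p (at most 10 per direction), the 5 highest and 5 lowest in level, paralogs with their partners, a list of structural members, the first genes of related lists and the non-members most like the members, not all of which are reported here; others, such as Rps4x in its comparison with Rps4l, were named after their values were seen. The members and lists were chosen with earlier results of these data known. The comparisons within a tissue by library set were added after seeing the data.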

Additional observations from a re-analysis of the deposited data

Results flagged for a closer look

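Within the 5 long-term libraries of each tissue, the 3-week library stood apart from the other 4 by Dixon's gap criterion, which chance meets in about 1 in 20 groups. In cortex the share of counts held by ribosomal protein genes was 2.52% at 3 weeks and 1.34% to 1.49% at 8 to 20 weeks, and in hippocampus it was 2.14% against 1.42% to 1.47%. Rplp1 stood at 2243 CPM against 1128 to 1185 CPM in cortex and at 1951 CPM against 1155 to 1260 CPM in hippocampus. Rps14 stood at 1247 CPM against 411 to 456 CPM in cortex and at 968 CPM against 366 to 469 CPM in hippocampus. The 3-week library stood apart on the high side in 69 of the 81 genes in cortex and in 54 in hippocampus, against 8.02% and 6.02% of 13281 other genes. The 3-week libraries carry the header style of the short-term ones, so their time and their library set cannot be told apart. Rpl4 stood apart at 20 weeks in cortex, at 539 CPM against 479 to 490 CPM.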

How the results depend on the processing

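Counts are of the 81 genes past an adjusted p of 0.05. Those from altered fits, here and above, have no share over all genes beside them. Changes in them thus show nothing particular to the members. The library set comparison (78) gave 73 to 79 calls with any exposure time left out, 78 in DESeq2 and limma-voom, and 78 with exposure time as a random replicate block; a fold above 1.5 was called for 22 genes over both tissues, 4 in hippocampus and 13 in cortex. For long-term against short-term exposure (17) the count was 28 in DESeq2, 39 in limma-voom, 11 on total counts, 0 for a fold above 1.5, 0 to 70 with a time left out and 74 without 3 weeks and the cortical 3-day library. With the library set as a term, which leaves 3 weeks against 3 to 7 days to set the estimate, it was 0 and the median turned to 0.24, with Rpl22 at 0.0202, Rplp2 0.0722, Rps4x 0.0275, Rps15a 0.00369, Rps28 0.0916, Rpl23 0.10, Rps18 0.15, Rpl10a 0.10, Rpl7 0.14, Rpl11 0.0380, Rplp1 0.14 and Rps27a 0.0691. Within hippocampus DESeq2 gave 8 and leaving out a library 0 to 58, and within cortex 1 and 0 to 63. Short-term against control (34) gave 14 on total counts, 0 for a fold above 1.5 and 0 to 30 with a library or time left out. Between tissues over all times (2) the count was 0 for a fold above 1.5, 1 without 3 and 8 weeks and 2 to 7 with a time left out. In the control and late set (3) it was 10 on total counts, 12 on totals without Rn45s, 5 with no filter on low counts, 0 for a fold above 1.5 and 1 to 11 with a time left out, where the 11 without controls were mostly lower in hippocampus. In the early set (0) it was 1 in DESeq2, 1 in limma-voom, 2 with no filter and 0 to 2 with a time left out. Libraries of the same time did not deviate together across tissues (r from -0.143 to 0.147 over 9 pairs). The replicate block gave 23 calls in long-term against short-term and 37 in short-term against control, and without the time factor the tissue count stayed at 2. Depth limits little here, but 2 control libraries limit every comparison with controls.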
